A study of Mus musculus with 4 samples.

Results

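Expression of genes of the committed oligodendrocyte stage was followed in cells sorted from the mouse dentate gyrus. The members were Gpr17, Enpp6, Bmp4, Bcas1, Tcf7l2, Itpr2, Myrf, Nkx2-2, Tmem88b and Enpp2, 10 genes taken by symbol from the 52636 genes of the count table. Each symbol had 1 row. They were selected on their place in the lineage and on their counts in these same libraries, including the difference between replicate numbers, so that difference is described here without a test.

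The study measured poly(A) RNA in 4 libraries of 10000 sorted living cells each. Of these, 2 came from Fmr1-/y mice, which lack the RNA-binding protein FMRP, and 2 from wild type littermates, all C57BL/6, aged 6 to 7 weeks and carrying the Dcx-DsRed reporter. That reporter puts a red fluorescent protein under regulatory sequence of the doublecortin gene Dcx, which marks neuroblasts and immature neurons. The labels number the libraries of each genotype replicate 1 and 2 without saying what the number stands for or whether replicates came from separate animals, name no knockout allele, and describe a sort of all living cells beside a sort of Dcx-DsRed+ cells, of which the design text gives only the Dcx-DsRed sort. The p-values below rest on the spread among 4 libraries, part of which may be technical.

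Oligodendrocytes, the myelin-forming glia, arise from dividing precursors that carry the receptor Pdgfra. On leaving the cell cycle these cells pass through a short committed stage marked by Gpr17, then become newly formed oligodendrocytes that switch on Myrf and early membrane genes, and last produce compact myelin. In the adult hippocampus the precursors persist and continue to give rise to some new oligodendrocytes.

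Library totals ran from 5478224 to 7213759 counts, and Fmr1 stood at 29.7 and 43.4 CPM (counts scaled to library size by the TMM method) in the Fmr1-/y libraries against 91.6 and 73.1 CPM in the wild type libraries, for replicates 2 and 1 in that order. Mitochondrial rRNA took 4.57% and 3.32% of the counts in the replicate 2 libraries of Fmr1-/y and wild type mice, against 1.32% and 1.19% in the replicate 1 libraries, and its part in the differences below was not tested. Dcx itself had 211 and 166 CPM in the replicate 2 libraries and 456 and 330 CPM in the replicate 1 libraries, in the same order of genotypes. Oligodendrocytes are not the cells this reporter is used to mark, yet Mbp, the myelin basic protein gene, had 1562 and 1407 CPM in the replicate 2 libraries and 638 and 395 CPM in the replicate 1 libraries.

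The 10 genes were read in every library, from 24 counts of Bmp4 to 7030 counts of Gpr17, and all 10 were among the 14673 genes with enough counts to test. Together they took 0.268% of the counts in Fmr1-/y replicate 2 and 0.255% in wild type replicate 2, against 0.109% in Fmr1-/y replicate 1 and 0.0583% in wild type replicate 1. Set per kilobase of gene length, their mean levels over the 4 libraries ran from 121 CPM per kilobase for Gpr17 to 3.60 for Tcf7l2. Gpr17 was followed by Enpp2 at 92.0, and each was above the next gene in 4 of 4 libraries. Bcas1 at 48.8 and Tmem88b at 45.9 changed places between libraries. Myrf at 19.1 was above Itpr2 at 15.4 in 3 of 4 libraries, and Itpr2 above Bmp4 at 9.21 in 4 of 4. Nkx2-2 at 5.65, Enpp6 at 5.51 and Tcf7l2 were not ordered alike across libraries.

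**Figure D1:**
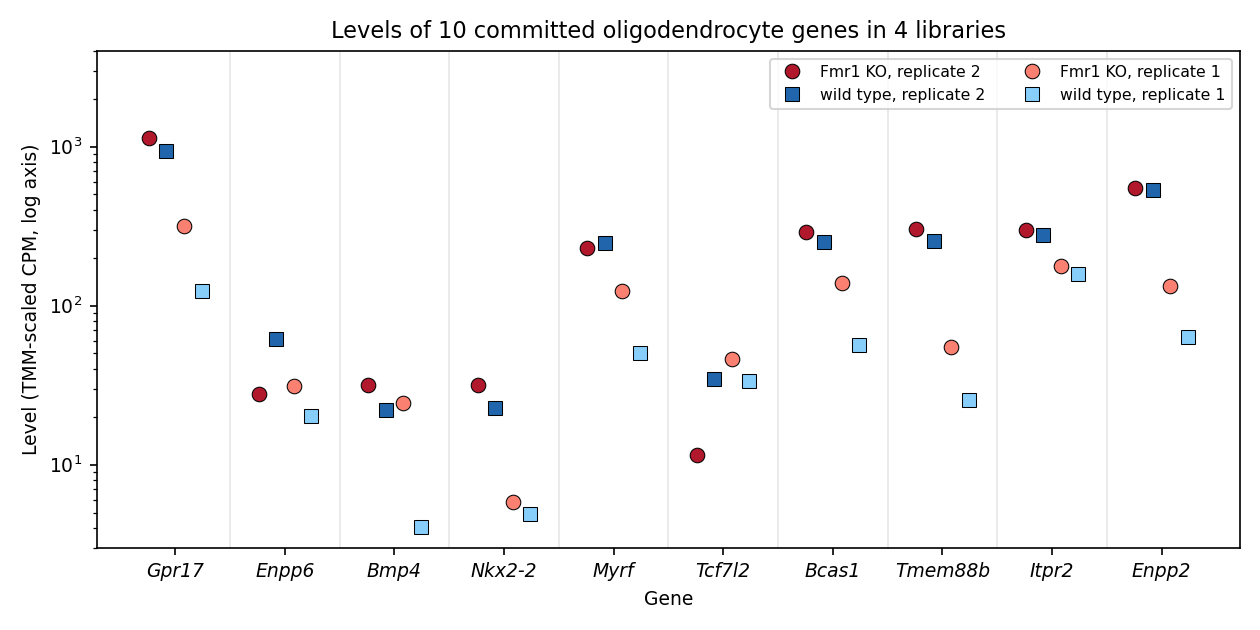
Level of each gene (TMM-scaled CPM, log axis) in the 4 libraries, with circles for Fmr1 KO and squares for wild type and darker symbols for replicate 2. Gpr17 runs from 124 CPM in wild type replicate 1 to 1139 CPM in Fmr1-/y replicate 2, and for 7 of the 10 genes both dark symbols lie above both light ones.

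The larger difference lay between replicate numbers. For 7 of the 10 genes both replicate 2 libraries were above both replicate 1 libraries, an arrangement that held for 26% of all genes tested, and for none of the 10 were both below, which held for 25.9%. In 5 of them, Gpr17, Bcas1, Nkx2-2, Tmem88b and Enpp2, replicate 2 was at least 2-fold above replicate 1 in both genotypes, as for 6.17% of all genes tested, and for none of the 10 was replicate 1 at least 2-fold above replicate 2 in both, as for 5.33%. The median log2 difference, replicate 2 minus replicate 1, was 0.98 in Fmr1-/y and 2.23 in wild type libraries, beside medians of -0.02 and -0.004 over all genes tested. In bulk RNA, fewer cells of a type and less RNA per cell cannot be told apart. The labels record nothing else that separates the replicate numbers, and the cause of the difference was not tested.

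Gpr17, a G protein-coupled receptor of the committed stage that restrains maturation into myelinating cells, was the most abundant member. It lies at chr18:31942997-31949636 (minus strand; this and the gene positions below are from GENCODE M21 on GRCm38). It had 1139 CPM in Fmr1-/y and 936 CPM in wild type cells of replicate 2, against 317 CPM in Fmr1-/y and 124 CPM in wild type cells of replicate 1. The genotypes overlapped, while the replicate numbers did not. Replicate 2 was 3.60-fold above replicate 1 in Fmr1-/y cells and 7.54-fold in wild type cells. A stretch of 188 exonic bases is shared with Lims2 on the opposite strand, which had 882 counts over the 4 libraries against 16112 for Gpr17.

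Of the secreted and signalling members, Bmp4 encodes a ligand that favours astrocyte over oligodendrocyte differentiation (chr14:46383520-46390669, minus strand). It had 31.6 CPM in Fmr1-/y and 22.0 CPM in wild type cells of replicate 2, and 24.3 CPM in Fmr1-/y and 4.07 CPM in wild type cells of replicate 1. Wild type replicate 1, with 24 counts, stood far below the other 3 libraries, and both Fmr1-/y libraries were above both wild type libraries. Enpp2, or autotaxin, is a secreted enzyme that makes lysophosphatidic acid (chr15:54838901-54952892, minus strand). Its levels were 545 CPM in Fmr1-/y and 537 CPM in wild type cells of replicate 2, and 133 and 63.4 CPM in Fmr1-/y and wild type cells of replicate 1. The pair of replicate 2 libraries was nearly level, and the pair of replicate 1 libraries was not. Enpp2 is also a product of the choroid plexus. The list of 10 choroid plexus markers summed to 3.89 CPM in Fmr1-/y and 8.50 CPM in wild type cells of replicate 2. In replicate 1 it summed to 2.56 and 8.99 CPM in Fmr1-/y and wild type cells. Kl and Aqp1 had the highest means, but Aqp1 was read only in wild type replicate 1, at 5.26 CPM. Ttr had 0 counts in every library. Enpp6, a membrane-anchored choline phosphodiesterase used as a marker of newly forming oligodendrocytes (chr8:46986887-47096762, plus strand), departed from the others. It had 27.7 CPM in Fmr1-/y and 61.8 CPM in wild type cells of replicate 2, and 31.4 and 20.3 CPM in Fmr1-/y and wild type cells of replicate 1. Both Fmr1-/y values lay between the wild type values.

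Among the transcription factors, Nkx2-2 and Myrf were higher in replicate 2 and Tcf7l2 was not. Nkx2-2, a homeodomain factor that helps precursors begin to differentiate (chr2:147177546-147194243, minus strand), had 31.6 CPM in Fmr1-/y and 22.6 CPM in wild type cells of replicate 2, against 5.81 and 4.92 CPM in Fmr1-/y and wild type cells of replicate 1. The replicate 1 values rest on 34 and 29 counts. Myrf, a membrane-bound factor needed for myelin gene expression (chr19:10208272-10240748, minus strand), had 229.9 CPM in Fmr1-/y and 249 CPM in wild type cells of replicate 2, against 124 and 50.4 CPM in Fmr1-/y and wild type cells of replicate 1. Wild type held both the highest and the lowest Myrf value. Tcf7l2, an effector of Wnt signalling found in newly differentiating oligodendrocytes and in other cell types (chr19:55741820-55933654, plus strand), had 11.5 CPM in Fmr1-/y and 34.4 CPM in wild type cells of replicate 2, and 46.3 and 33.7 CPM in Fmr1-/y and wild type cells of replicate 1. The wild type libraries were nearly level at 34.1 ± 0.480 CPM, while the Fmr1-/y libraries, at 28.9 ± 24.6 CPM (SD, n = 2 each), held both extremes.

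Bcas1, a protein of early myelinating oligodendrocytes (chr2:170346991-170427845, minus strand), had 291 CPM in Fmr1-/y and 251 CPM in wild type cells of replicate 2, against 139 and 56.3 CPM in Fmr1-/y and wild type cells of replicate 1. Tmem88b, a predicted transmembrane protein (chr4:155781591-155785874, minus strand), had the largest ratio of the 10 between the wild type libraries. It had 301 CPM in Fmr1-/y and 256 CPM in wild type cells of replicate 2, against 55.0 and 25.6 CPM in Fmr1-/y and wild type cells of replicate 1, a 5.48-fold difference between the Fmr1-/y and a 9.99-fold difference between the wild type libraries. Itpr2, a calcium release channel of the endoplasmic reticulum that astrocytes also use (chr6:146108299-146502223, minus strand), varied least. Its levels were 300.1 CPM in Fmr1-/y and 278 CPM in wild type cells of replicate 2, and 176 and 159 CPM in Fmr1-/y and wild type cells of replicate 1. The replicate difference was 1.70-fold in Fmr1-/y and 1.75-fold in wild type libraries, and the genotypes differed by less than that within either replicate number.

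**Figure D2:**
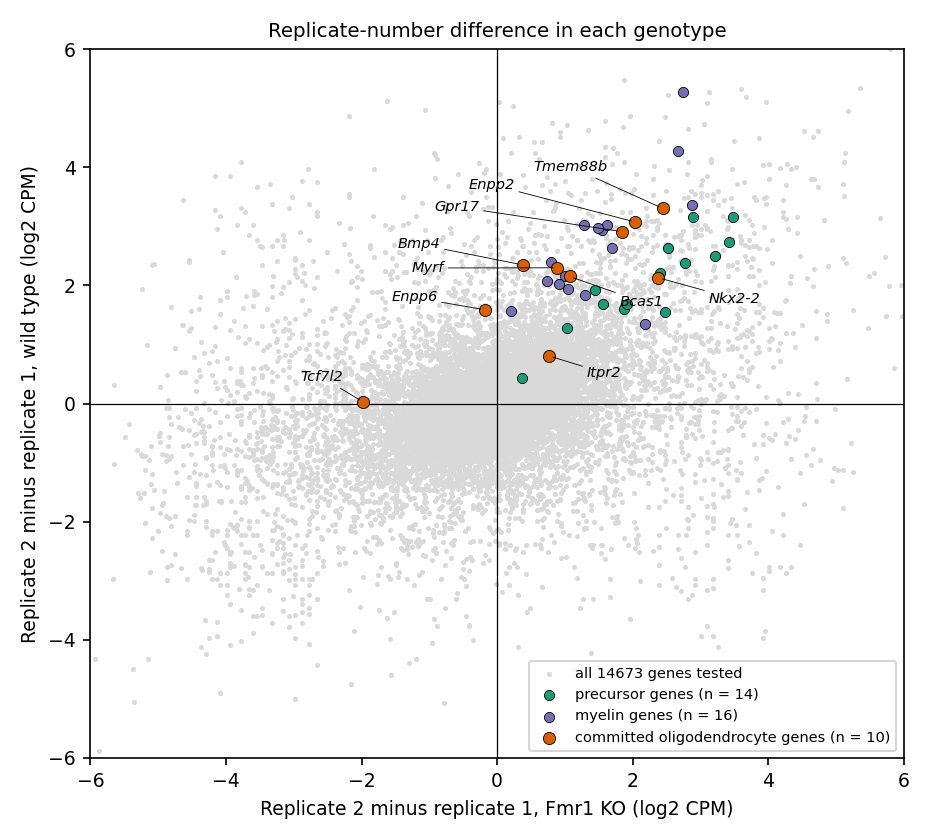
Difference in log2 CPM, replicate 2 minus replicate 1, in Fmr1 KO (horizontal) and wild type cells (vertical) for the 10 genes, 14 precursor genes, 16 myelin genes and all genes tested (grey; 11 lie outside the axes). Tmem88b stands at 2.45 and 3.30, while Tcf7l2 stands at -1.98 and 0.03 and Enpp6 at -0.18 and 1.59.

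Upstream sequence was set side by side for members with large and with negative replicate differences in Fmr1-/y cells. Windows of the 250 bases before a RefSeq gene start (GRCm38.p6) were found for 6 of the 10 genes, Bmp4, Enpp6, Itpr2, Nkx2-2, Tcf7l2 with 2 starts, and Tmem88b, and Bcas1, Enpp2, Gpr17 and Myrf were not matched. Shown are Nkx2-2 (chr2:147186403-147186652, minus strand) and Tmem88b (chr4:155785875-155786124, minus strand), the matched genes with the largest replicate differences in Fmr1-/y cells, and then Enpp6 (chr8:46986637-46986886, plus strand) and Tcf7l2 at its first start (chr19:55741560-55741809, plus strand), the matched genes with negative differences there, although Enpp6 was 3.04-fold higher in replicate 2 in wild type cells. The RefSeq start used for Nkx2-2 is internal to its GENCODE span (chr2:147177546-147194243), so its window lies within that span and not upstream of it. The same holds for the second Tcf7l2 start, which is not shown. Capitals mark E-boxes, CANNTG, the letters read by helix-loop-helix factors such as Olig2.
Nkx2-2: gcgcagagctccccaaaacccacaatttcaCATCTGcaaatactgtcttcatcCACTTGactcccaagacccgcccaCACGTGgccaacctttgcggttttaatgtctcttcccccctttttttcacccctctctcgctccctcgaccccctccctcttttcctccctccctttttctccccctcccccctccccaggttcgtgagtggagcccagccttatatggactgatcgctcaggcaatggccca
Tmem88b: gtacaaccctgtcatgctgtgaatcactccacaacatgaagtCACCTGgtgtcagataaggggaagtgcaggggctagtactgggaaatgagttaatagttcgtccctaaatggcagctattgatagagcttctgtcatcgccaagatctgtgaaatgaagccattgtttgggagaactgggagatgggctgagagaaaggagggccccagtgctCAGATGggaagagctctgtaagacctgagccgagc
Enpp6: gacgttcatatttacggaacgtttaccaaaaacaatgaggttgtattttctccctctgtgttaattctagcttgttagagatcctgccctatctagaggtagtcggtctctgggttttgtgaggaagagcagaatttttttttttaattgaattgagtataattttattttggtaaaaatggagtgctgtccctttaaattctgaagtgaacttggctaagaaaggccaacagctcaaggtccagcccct
Tcf7l2: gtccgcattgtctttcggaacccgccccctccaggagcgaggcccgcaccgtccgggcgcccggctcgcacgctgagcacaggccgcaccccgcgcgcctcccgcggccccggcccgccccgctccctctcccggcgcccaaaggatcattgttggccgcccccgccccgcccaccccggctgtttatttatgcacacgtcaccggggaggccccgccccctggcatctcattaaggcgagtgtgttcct
Nkx2-2 held 3 E-boxes, Tmem88b 2, and Enpp6 and Tcf7l2 none. Bmp4 held 3 and Itpr2 none. An E-box stood in 3 of the 7 member windows and in 66.2% of all 32851 promoter windows of this length. On either strand, the SOX core ACAAT stood in 4 of the 7 member windows, among them Nkx2-2, Tmem88b, Enpp6 and the first Tcf7l2 start, and in 27.7% of all windows. The letters CTGGCAC, associated with MYRF, and TCAAAG, the TCF/LEF core, stood in 0 of the 7 windows, and in 4.19% and 13.8% of all windows. The motifs do not contain one another, although matches may overlap. These matches describe letters in a window and show neither binding nor its absence.

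Between the genotypes none of the 10 genes passed the test. The adjusted p was 0.9999 for each gene (edgeR quasi-likelihood test, Benjamini-Hochberg over all genes tested). The call rate over all genes was 0% in either direction. Fmr1 itself was not called either (log2 fold change -1.17, unadjusted p 0.0134, adjusted p 0.9999). The lack of calls therefore does not show a lack of difference. In this fit 0 of the 10 genes and 1.05% of all genes stood at an unadjusted p under 0.05. DESeq2 and limma voom also called 0 of the 10. These fits had no term for the replicate number, so its difference stayed in their error. An edgeR fit with that number as a block called 1 of the 10, Gpr17 (log2 fold change 0.81, adjusted p 0.00339). It called 10 of all 14673 genes tested. The labels do not say that the number pairs libraries. In the fit without the block, estimates were above 0, meaning higher in Fmr1-/y cells, for 8 of the 10 genes, beside 51.6% of all genes. The median log2 fold change there was 0.29, beside 0.02 over all genes. Bmp4 had the highest estimate, with means of 27.9 ± 5.19 CPM in Fmr1-/y and 13.1 ± 12.7 CPM in wild type cells (SD, n = 2 each), giving a log2 fold change of 1.09 (standard error 0.78). It was the 1 gene of the 10 with both Fmr1-/y libraries above both wild type libraries, which held for 11.8% of all genes, and the reverse arrangement held for 0 of the 10 and 13.7% of all genes. Enpp6 had the lowest estimate, with means of 29.6 ± 2.63 CPM in Fmr1-/y and 41.1 ± 29.3 CPM in wild type cells (SD, n = 2 each), giving a log2 fold change of -0.48 (standard error 0.56). Gpr17 averaged 728 ± 582 CPM in Fmr1-/y and 530 ± 574 CPM in wild type cells (SD, n = 2 each), and its log2 fold change of 0.46 was smaller than its standard error of 0.91. These directions changed with the library left out. The median was -0.36 without Fmr1-/y replicate 2 and -0.32 without wild type replicate 1. It was 0.89 without Fmr1-/y replicate 1 and 1.92 without wild type replicate 2. Each omission leaves 1 genotype with a single replicate number, so genotype and replicate number cannot be told apart in it. Without wild type replicate 2, 6 of the 10 genes stood at an unadjusted p under 0.05, beside 213 of 16017 genes tested, and none was called after adjustment.

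Within replicate numbers the genotype difference took different sizes. Among replicate 1 libraries all 10 genes were higher in Fmr1-/y than in wild type cells, beside 51.3% of all genes tested, with a median log2 difference of 1.08, and 6 of the 10 differed by at least 2-fold, beside 9.34% of all genes. Among replicate 2 libraries 7 of the 10 were higher in Fmr1-/y cells, beside 48.2% of all genes, with a median of 0.16, and 0 of the 10 were at least 2-fold higher, beside 7.71%. Each of these sets 1 library against 1 library and has no replicate check, and whether the genotype difference itself differed between replicate numbers was not tested.

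In replicate 1, Bmp4 was 5.96-fold higher in Fmr1-/y than in wild type cells, with exact 95% bounds of 3.85 and 9.61 that express counting error alone. Gpr17 was 2.55-fold higher (2.34 to 2.78), Bcas1 2.46-fold (2.17 to 2.81), Myrf 2.46-fold (2.15 to 2.83), Tmem88b 2.15-fold (1.77 to 2.62) and Enpp2 2.09-fold (1.85 to 2.37). For Nkx2-2 the ratio of 1.18 had an interval of 0.698 to 2.01, so no difference was detectable at its depth. In replicate 2 the interval lay above 1 for 6 of the 10 genes, and the highest ratios were 1.43 for Bmp4 (1.15 to 1.78) and 1.40 for Nkx2-2 (1.13 to 1.74), whose ratio was lower in replicate 1. There the ratio was 1.22 for Gpr17 (1.18 to 1.26), 1.02 for Enpp2 (0.969 to 1.06) and 0.923 for Myrf (0.860 to 0.991). Enpp6 and Tcf7l2 ran the other way there, at ratios of 0.448 (0.373 to 0.537) and 0.334 (0.253 to 0.437), Fmr1-/y over wild type. Each ratio sets 1 library against 1, and same-genotype libraries differed beyond counting noise, so these intervals make no statement on the genotypes. Reads counted without molecular identifiers can also copy 1 molecule several times, which makes the intervals too narrow even for counting error.

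**Figure D3:**
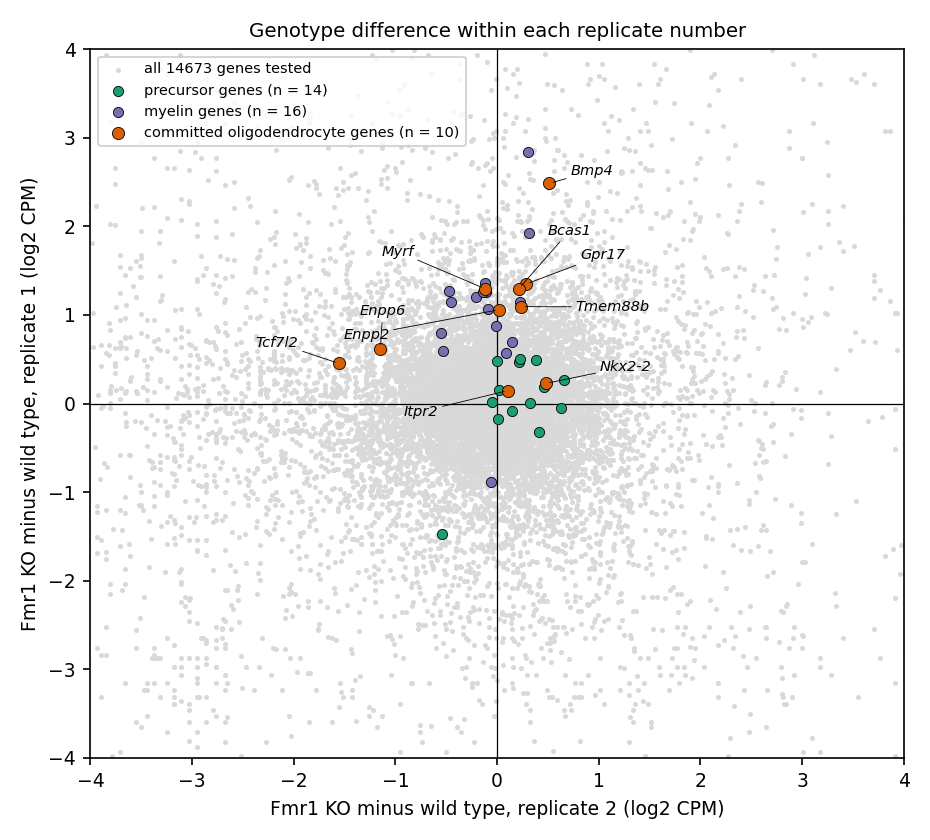
Difference in log2 CPM, Fmr1 KO minus wild type, among replicate 2 libraries (horizontal) and replicate 1 libraries (vertical), for the same gene sets (grey, all genes tested; 177 lie outside the axes). Bmp4 stands at 0.51 and 2.48, and Gpr17, Bcas1, Myrf, Tmem88b and Enpp2 lie above 1 on the vertical axis and between -0.11 and 0.28 on the horizontal one.

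The stages before and after the committed one were set beside it. The 14 precursor genes summed to 7900 CPM in Fmr1-/y and 7122 CPM in wild type cells of replicate 2, against 2726 and 2488 CPM in Fmr1-/y and wild type cells of replicate 1. All 14 were higher in both replicate 2 libraries than in both replicate 1 libraries, and the most abundant were Ptprz1, a receptor phosphatase shared with astrocytes, and Tnr, an extracellular matrix protein. The 17 myelin genes summed to 12002 CPM in Fmr1-/y and 13244 CPM in wild type cells of replicate 2, against 4609 and 2170 CPM in Fmr1-/y and wild type cells of replicate 1. Of these, 16 were tested and all 16 were higher in both replicate 2 libraries, Mbp among the most abundant of them. The committed genes summed to 2909 and 2647 CPM in replicate 2 and 1051 and 542 CPM in replicate 1, in the same order of genotypes.

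How these stages were balanced in a library depended on Ptprz1, which made up 21.6% and 24.8% of the precursor sum in Fmr1-/y and wild type cells of replicate 2 and 48.5% and 52.5% in those of replicate 1. With it, the committed sum was 0.368 of the precursor sum in Fmr1-/y and 0.372 in wild type cells of replicate 2, and 0.385 in Fmr1-/y against 0.218 in wild type cells of replicate 1. Without Gpr17, the most abundant member, the same ratios were 0.224 and 0.240 in replicate 2 and 0.269 and 0.168 in replicate 1. The myelin sum was 1.52 and 1.86 times the precursor sum in Fmr1-/y and wild type cells of replicate 2, and 1.69 and 0.872 times in those of replicate 1. Without Ptprz1, a choice made after seeing the data, the committed sum was 0.470 and 0.495 of the precursor sum in Fmr1-/y and wild type cells of replicate 2, and 0.748 and 0.458 in those of replicate 1. The myelin sum was then 1.94 and 2.47 times the precursor sum in replicate 2, and 3.28 and 1.83 times in replicate 1, in the same order of genotypes. Wild type replicate 1 was therefore the library apart with Ptprz1 counted, and Fmr1-/y replicate 1 without it, while within replicate 1 both ratios were higher in Fmr1-/y than in wild type cells either way. The committed sum stayed between 0.200 and 0.250 of the myelin sum in the 4 libraries. Within replicate 1 the median genotype difference was 1.15 for myelin genes and 0.08 for precursor genes on the log2 scale, beside the 1.08 of the committed genes. Within replicate 2 the medians were -0.10 for myelin genes, 0.22 for precursor genes and 0.16 for the committed genes. The ratios of sums are taken within a library and do not depend on its scaling, and each rests on single libraries without a test.

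Other genes of the oligodendrocyte lineage gave a mixed picture. Among 9 lineage transcription factors, 8 were higher in both replicate 2 libraries, with a median replicate difference of 1.99. The most abundant of them were Zeb2, which neurons and other cells also express, and Olig1, whose levels were 398 and 343 CPM in Fmr1-/y and wild type cells of replicate 2 and 86.3 and 49.0 CPM in those of replicate 1. A further list held 18 genes linked to the committed stage, many of them also expressed by neurons or astrocytes. Of its 16 tested genes, 11 were higher and 2 lower in both replicate 2 libraries, with a median replicate difference of 0.53, led by the kinase Fyn and the deacetylase Sirt2. In the genotype test 0 genes of these lists passed in either direction, and the median log2 fold changes were 0.27 for precursor genes, 0.14 for myelin genes, 0.10 for lineage factors and 0.25 for the further list.

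Markers of other cell types were read against the same shares of all genes, 26% higher and 25.9% lower in both replicate 2 libraries. Astrocyte markers summed to 7524 and 9085 CPM in Fmr1-/y and wild type cells of replicate 2, and to 11090 and 10616 CPM in those of replicate 1, with 7 of 10 lower in both replicate 2 libraries, and Slc1a2 and Slc1a3 the most abundant. Immature neuron markers summed to 2693 and 2583 CPM in replicate 2 and to 5250 and 4627 CPM in replicate 1, in the same order of genotypes, with 12 of 13 lower in both replicate 2 libraries, led by Tubb2b and Prox1. Mature neuron markers, led by Camk2a and Gria2, had 4 of 9 higher and 2 of 9 lower in both replicate 2 libraries and summed to 6380 and 4965 CPM in replicate 2 and 3971 and 4141 CPM in replicate 1. Microglial markers, Csf1r among the most abundant, summed to between 31.5 and 107 CPM, with 5 of 9 tested genes higher and 0 lower in both replicate 2 libraries. Trem2 was at 0 in both Fmr1-/y libraries, Tmem119 in Fmr1-/y replicate 2, and Itgam and Ctss in wild type replicate 1. Vascular markers, led by Pdgfrb and Rgs5, summed to between 81.7 and 181 CPM, with 2 of 10 higher and 1 of 10 lower in both replicate 2 libraries, no more than the shares of all genes. Cldn5 was at 0 in Fmr1-/y replicate 1, and Pecam1 and Ly6c1 in wild type replicate 1. The part of these markers in the levels of the committed genes was not tested.

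**Figure D4:**
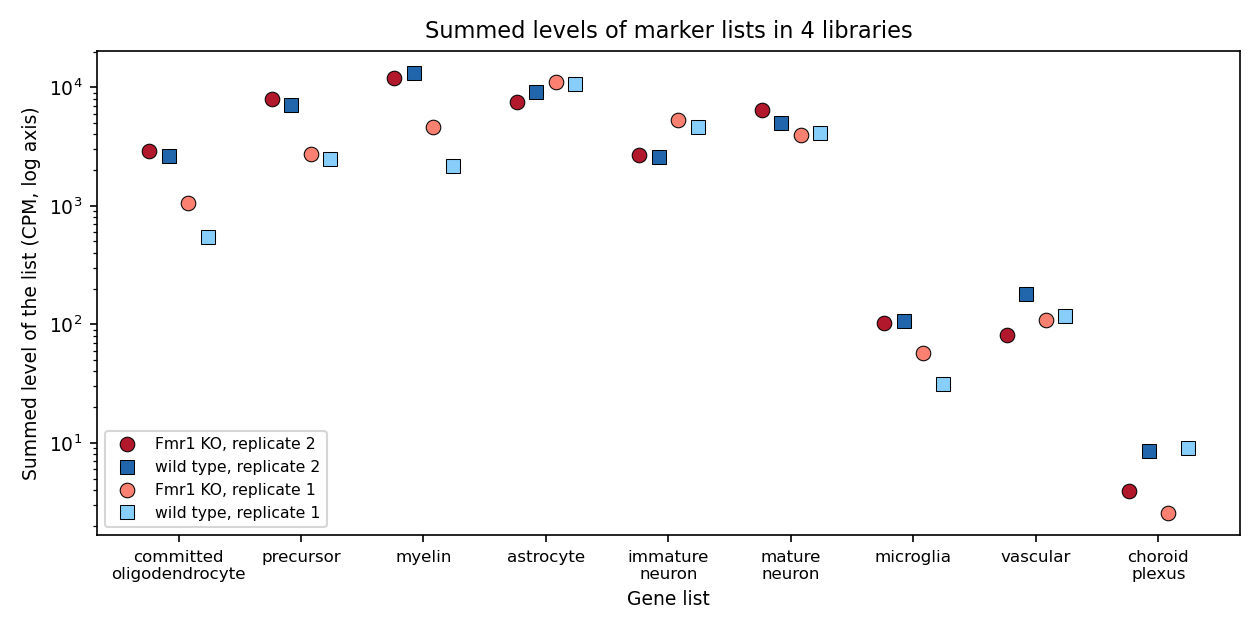
Summed level of each gene list (TMM-scaled CPM, log axis) in the 4 libraries, with symbols as in the plot of gene levels. The committed, precursor and myelin sums are higher in both replicate 2 libraries, and the immature neuron and astrocyte sums are lower there.

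Genes outside these lists were ranked by how near their centred log2 CPM lay to the mean profile of the 10 genes over the 4 libraries. Among 7914 genes with a mean of at least 20 CPM, the nearest 5 were Mageh1, Me1, Kazn, Tmem229a and Zdhhc14, at Euclidean distances of 0.0485 to 0.108. Mageh1 had 87.7 and 90.3 CPM in Fmr1-/y and wild type cells of replicate 2, and 43.6 and 22.2 CPM in those of replicate 1. Members themselves lay between 0.222 for Myrf and 2.72 for Tcf7l2 from that mean, so the profile was closer to Myrf and Bcas1 (0.316) than to the other 8 genes. With 4 libraries a close match is a description and says nothing on shared function.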

How the data were processed

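RNA sequencing was deposited as 1 table of raw counts per gene for 4 libraries. Per the submitters' processing notes the authors used STAR 2.5.3a and GRCm38, and per the labels' protocols a Gencode annotation. Its release, the program that counted reads and whether strand was used were not given in the sources used here, which leaves counts at overlapping or antisense genes uncertain. The deposited table also gives each gene's length in bases, with no further columns of per-sample values (0).

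Counts were filtered with filterByExpr (14673 of 52636 genes kept) and scaled by TMM. Genotype was tested with edgeR 4.0.16 (R 4.3.3) as the only term, by estimateDisp, robust glmQLFit and glmQLFTest (two-sided), and a Benjamini-Hochberg adjusted p under 0.05 was a call. The standard error of a log2 fold change is its absolute value over the root of F. Differences between single libraries are in log2 CPM with a prior count of 2. The script was tested on simulated counts with known changes. Same-genotype libraries differed beyond counting noise (chi-square per degree of freedom 54.2 in Fmr1-/y and 38.2 in wild type), so each counts as 1 library. The common biological coefficient of variation was 0.538.

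Gene positions are from GENCODE M21 on GRCm38, where all 10 genes were found, 7 with the version of the table's identifier. That release may not be the authors' own. Promoter windows are from RefSeq (GRCm38.p6), and for the members those on chromosome 18 were left out. Intervals of count ratios are exact (Clopper-Pearson, 95%). The members and the other gene lists were chosen with earlier results of these data known. Named are the 10 genes, Fmr1, the 2 most abundant genes of each other list and the 5 nearest profiles, leaving out clone and prediction symbols; some genes the rule takes are not reported here. Dcx, Lims2, Ttr and the microglial and vascular markers at 0 were chosen after their values were seen. Alternatives were DESeq2 size factors, library size alone, no low-count filter, leaving out each library, DESeq2 1.42.0, limma voom (3.58.1), the replicate number as a block, a prior count of 0.5 and, added after seeing the data, the precursor sum without Ptprz1.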

Additional observations from a re-analysis of the deposited data

How the results depend on the processing

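In the genotype comparison 0 genes and 0 of the 10 members were called under other scalings, without the low-count filter, with each library left out, by DESeq2 (246 genes at an unadjusted p under 0.05) and by limma voom (90 genes). Each comparison left with 1 library in a genotype assumes that it varies like the others. With the replicate number as a block, 10 genes were called, 1 of them a member: Gpr17, at a log2 fold change of 0.81 and an adjusted p of 0.00339 (edgeR), against adjusted p values of 0.908 to 0.999998 under its other alternatives. Under the block 6 of the 10 members stood at an unadjusted p under 0.05, beside 778 of the 14673 genes tested. The labels do not say that a number pairs libraries. Deviations of same-numbered libraries from their genotype means correlated at 0.36 across 14673 genes, with 2 pairs, which is too few to settle pairing.

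Leaving out single libraries turned the direction of the genotype estimate for 9 of the 10 members. Each omission leaves 1 genotype with a single replicate number, so its estimate cannot tell genotype from replicate number. The median ran from -0.36 to 1.92. Over the 4 omissions the log2 fold change ran from -0.75 to 2.54 for Gpr17, -0.23 to 1.92 for Bcas1, -1.19 to 2.41 for Enpp2, -1.07 to 0.53 for Enpp6, -0.32 to 0.57 for Itpr2, -0.50 to 1.80 for Myrf, -1.26 to 1.91 for Nkx2-2, -1.56 to 0.43 for Tcf7l2 and -1.37 to 2.79 for Tmem88b, while Bmp4 stayed above 0, from 0.34 to 2.76. The median replicate difference was 1.60, and ran from 0.98 to 2.23 with single libraries left out, which leaves 1 genotype pair. Scaled by library size alone it was 1.44, where the median over all genes shifted to -0.18. Leaving Ptprz1 out of the precursor sum must raise the committed and myelin ratios to it, so that rise is no result. The library that stood apart changed, from wild type replicate 1 with Ptprz1 counted to Fmr1-/y replicate 1 without it. Counted within each genotype pair, 8 members were higher in replicate 2 in both pairs. This is a looser measure than both replicate 2 libraries above both replicate 1 libraries. With a library left out, which leaves 1 pair, the count was 8 to 10. No share over all genes is given for this measure, so these counts have no background to be read against. With 2 libraries per genotype, the spread between them limits what the test can call.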
